A study of Mus musculus with 38 samples.

Results

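The 44 genes described here drive or carry out cell division: D cyclins and their kinases, G1/S cyclins and E2F factors, inhibitors of cyclin-dependent kinases (CDKs), the machinery that licenses and copies DNA, enzymes that supply deoxynucleotides, and the cyclins, kinases and spindle proteins of mitosis. They were chosen by symbol, without use of their measured values, though earlier results of these data were known. All 44 were found once among the 23700 entries of each of the 14 RNA tables from mouse CD4 T helper cells. Values are FPKM, in which fragments are divided by transcript length and by library size, so that levels of different genes can be set beside each other.

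In a dividing T cell, D cyclins with CDK4 or CDK6 inactivate the retinoblastoma protein, which frees E2F factors to switch on genes for S phase. Licensing factors such as CDC6 load the MCM2-7 helicase onto origins, and cyclin E or cyclin A with CDK2 fires them. Genes of G2 and mitosis are switched on later, by FOXM1, B-MYB and NF-Y acting through CCAAT boxes and the cell cycle homology region (CHR), and the anaphase-promoting complex ends mitosis by degrading B cyclins. T cells enter this programme after antigen receptor stimulation and keep it going in IL-2, which signals through STAT5.

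The series compared enhancers and expression in Th1 and Th2 cells, the helper lineages that IL-12 acting through STAT4 and T-bet, and IL-4 acting through STAT6 and GATA3, produce. Naive CD4 cells sorted from spleen and lymph nodes of C57BL/6J mice were polarised in vitro, and 13 groups gave 14 RNA libraries, 1 a group except WT Th1 with 2. The vector groups, labelled as 5-day cultures, were Stat6 tm1 (STAT6 KO) and WT Th2 cells with a GATA3 or control vector, and STAT4 tm1 (STAT4 KO) and WT Th1 cells with a T-bet or control vector. The groups without a vector, labelled as 7-day cultures, were STAT6 KO Th2, WT Th2, STAT4 KO Th1, Tbet tm1 (T-bet KO) Th1 and WT Th1.

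Per the labels, all but the Th2 vector cultures were restimulated through CD3 and CD28 for 2 h with IL-12 (Th1) or IL-4 (Th2). For the Th2 vector cultures the sources used here give no restimulation. Another label gives the Th1 vector cultures as 7 days. Vector cells were stimulated through CD3 and CD28, infected with retrovirus carrying a truncated human nerve growth factor receptor behind the insert (stated for the T-bet and its control vector), kept 2 days in medium with 10 ng/mL IL-12 or IL-4, and grown for 3 further days in 50 U/mL IL-2 with that cytokine. For the cultures without a vector the sources used here give no IL-2 step. The comparison of vector with no-vector cultures is therefore one of whole regimes. In it vector, days and cytokines, and for Th2 also the labelled restimulation, cannot be told apart. The labels do not say whether libraries came from separate animals. No group had a replicate in the tests below, so the p-values do not measure scatter between replicates. They rest on departures from additive effects among these libraries alone, which may be technical.

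The tables held 9793 to 10374 genes at 1 FPKM or more per library. Cufflinks lists an interval around each value, and its upper bound lay a median of 3.66% to 7.16% of the value above it over the 44 members, for counting error only. 2 libraries, T-bet KO Th1 and WT Th1 replicate 2, stood apart: small RNA genes took 20.7 to 22.1% of their summed FPKM, against 4.43 to 7.65% elsewhere, and the median member stood at 5.08 to 8.73 FPKM, against 16.8 to 37.8. They were kept out of the tests, a choice made with earlier results of these data known, and are described on their own. Results with all 14 libraries are given at the end. Stat4 was 17.5, 7.57 and 6.71 FPKM in the STAT4 KO libraries (no vector, control vector, T-bet vector), against 60.8, 41 and 37.1 in matched WT libraries and 15.1 in WT Th1 replicate 2. Tbx21, the gene of T-bet, was 4.18 FPKM in T-bet KO Th1, against 153 and 88.4 in WT Th1 replicates 2 and 1. Stat6 was 34.6, 36.1 and 23.3 FPKM in libraries labelled STAT6 KO (no vector, control vector, GATA3 vector), against 35.6, 65.9 and 48 in matched WT libraries. It thus does not check the label of the no-vector STAT6 KO library. The sources used here do not give the deleted part of the gene. Gata3, which STAT6 induces, was 14.3 and 29.7 FPKM in STAT6 KO Th2 without and with the control vector, against 62.1 and 95.7 in WT Th2. Cd3e (95.6 to 166 FPKM) and Cd4 (63.4 to 235) were present in every library. Ms4a1, Lyz2, Csf1r and Ncr1, which define B cells, macrophages and NK cells, were at most 0.0571 FPKM, and Cd8a at most 0.21; the macrophage gene Emr1 was 8.42 FPKM in WT Th2 and at most 0.505 elsewhere. The 3 NK genes listed (Ncr1, Klrb1c and Klrk1) summed to 3.35 to 5.28 FPKM in the 2 libraries that stood apart, against 0.0336 to 0.538 in vector cultures and 0.0602 to 0.973 in no-vector cultures. The 2 CD8 genes (Cd8a and Cd8b1) summed to 1.84 to 3.17 FPKM in vector cultures, 2.94 to 5.65 in no-vector cultures and 2.62 to 3.46 in the 2 that stood apart. The 5 B cell genes stood at 0.606 to 1.28, 0.348 to 0.87 and 1.03 to 1.46 FPKM, and the 5 myeloid genes at 0.2 to 0.963, 0.372 to 8.63 and 1.06 to 2.02, in the same order of groups. The part of these lists in the members' levels was not tested.

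Levels of the members covered a wide range. Over the 12 libraries, cyclin D2 (Ccnd2) had the highest mean, 201 FPKM (range 105 to 311), followed by the CDK inhibitor p21 (Cdkn1a) at 175, the replication clamp Pcna at 159, topoisomerase IIα (Top2a) at 122 and Ube2c, the ubiquitin-conjugating enzyme of the anaphase-promoting complex, at 104. The ranges of these 5 genes overlapped. The licensing factor Cdc6 was lowest at 4.47 FPKM (range 0.575 to 9.02), with E2f1 (6.83), cyclin E2 (Ccne2, 8.25) and cyclin E1 (Ccne1, 8.86) just above it. Cyclin D1 (Ccnd1), not a member, was at most 0.861 FPKM in any library. RNA was measured on whole cultures, in which fewer dividing cells and less RNA per cell cannot be told apart.

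**Figure D1:**
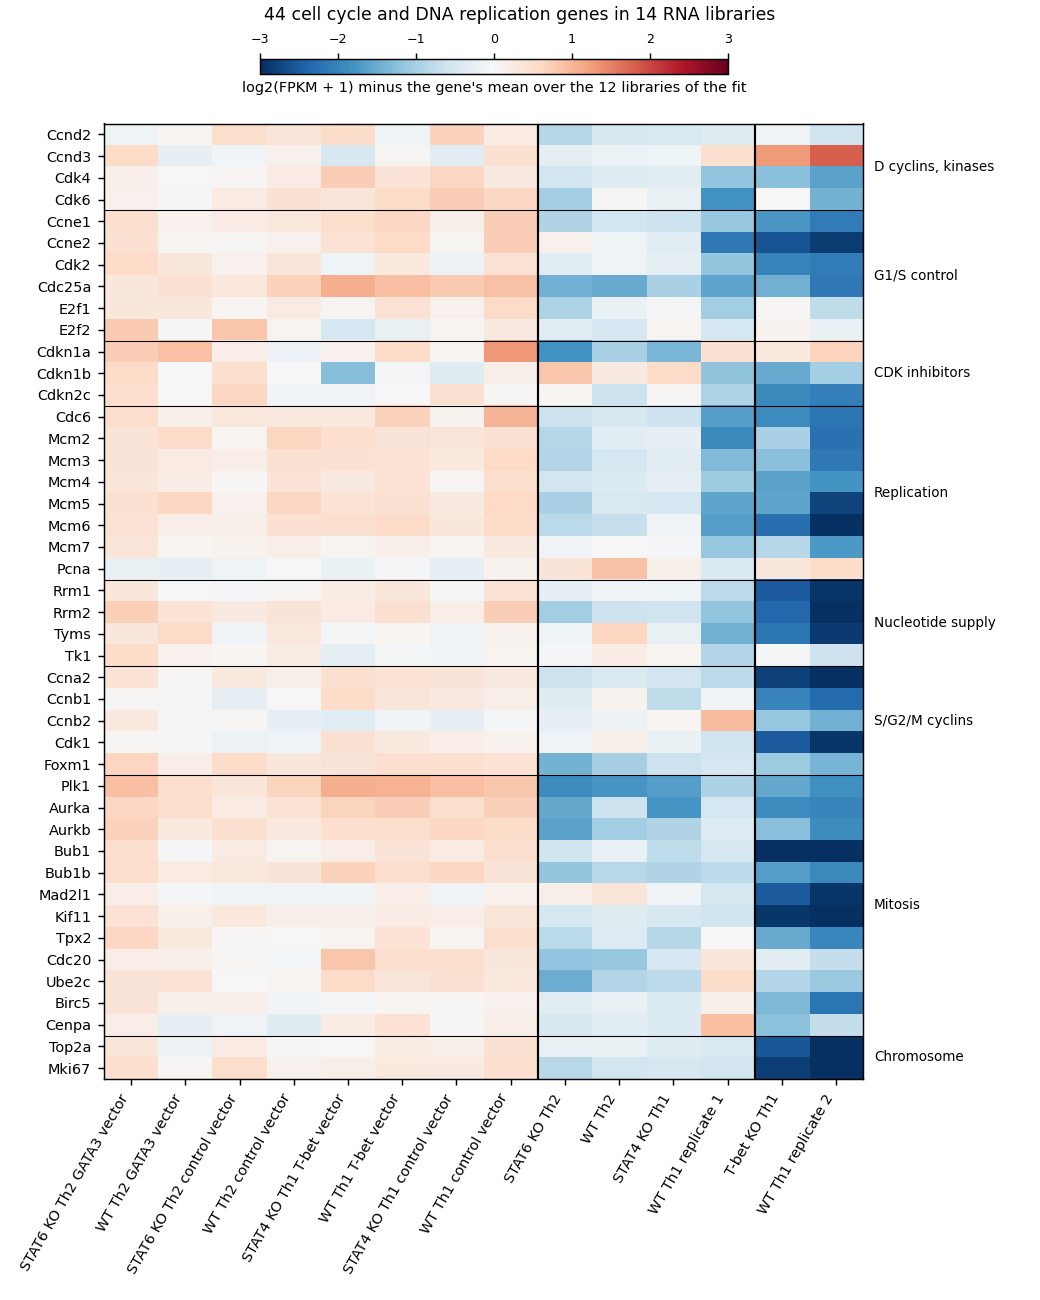
Each row is a member, grouped by role, and each column a library; colour gives log2(FPKM + 1) minus the gene's mean over the 12 libraries of the fit, cut off at 3 either way. Black lines separate the 8 vector cultures, the 4 cultures without a vector and the 2 libraries that stood apart. Most rows are highest in a vector culture and lowest in T-bet KO Th1 or WT Th1 replicate 2. Exceptions to 1 or both include Ccnd3, Pcna, Cdkn1a, Cdkn1b, Ccnb2, Cenpa, Mad2l1, Tyms and Plk1.

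Of the terms in the fit, culture regime had the most members called. In a limma fit of log2(FPKM + 1) over 10775 genes and 12 libraries, 29 of the 43 members tested were higher in vector cultures, 0 were lower and 14 did not pass an adjusted p of 0.05 (Benjamini-Hochberg). Over all genes, 53.7% were called (37.2% higher, 16.5% lower), so a call by itself says little here. The members' median difference was 0.82 on the log2 scale, against 0.17 over all genes tested. In 24 of 43 members every vector culture lay above every no-vector culture, against 24.9% of all genes. Tpx2, a spindle assembly factor, was not tested because its estimate was marked as failed in 1 library. Without that library it was called (log2 0.67, limma adjusted p = 0.00801). The all-gene split depends on scaling: 4006 genes higher and 1781 lower as deposited, 2576 and 2989 with library medians subtracted, 2936 and 2529 after quantile normalization. The 6 T cell markers moved the other way, with a summed level of 654 to 859 FPKM in vector cultures and 1341 to 1530.1 in no-vector cultures, 5 of 6 called lower; their part in the members' differences was not tested.

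**Figure D2:**
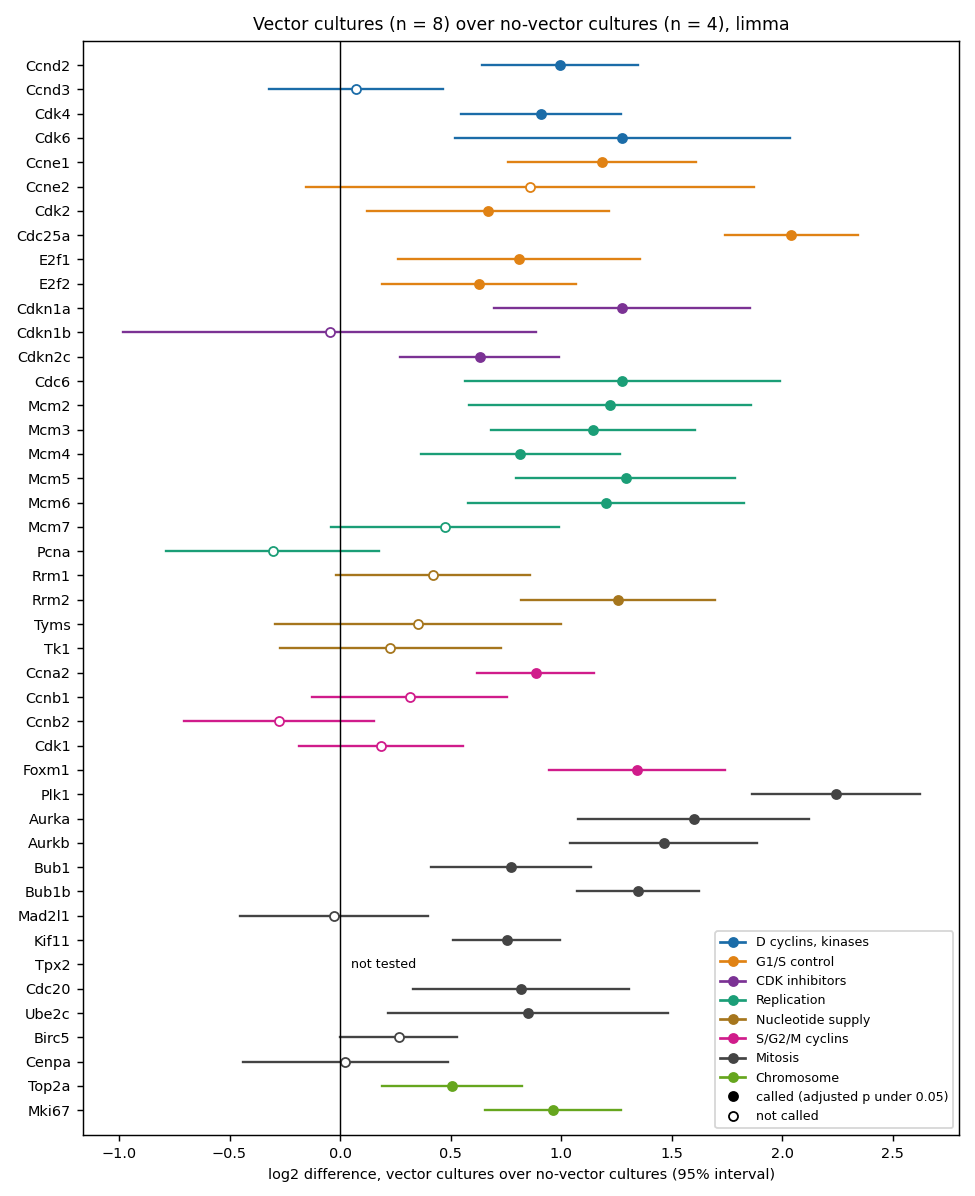
The log2 difference of vector over no-vector cultures in the 12-library fit, with its 95% interval, for each member in role order; filled points were called. Plk1 and Cdc25a lie furthest right at 2.24 and 2.04, while Pcna, Ccnb2, Cdkn1b and Mad2l1 lie left of 0 and were not called.

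Of the D cyclins and their kinases, 3 of 4 were higher in vector cultures. Ccnd2 (mm9 chromosome 6, 127075727 to 127101066) was 174 to 311 FPKM in the 8 vector cultures (median 235), against 105 in STAT6 KO Th2, 137 in WT Th2, 139 in STAT4 KO Th1 and 147 in WT Th1 replicate 1. For Ccnd2 the difference was log2 0.996, SE 0.15, adjusted p = 0.00109. Cdk4 was 90.9 to 152 FPKM in the 8 vector cultures (median 108), against 59.98 in STAT6 KO Th2, 69.2 in WT Th2, 71.3 in STAT4 KO Th1 and 38.9 in WT Th1 replicate 1. For Cdk4 the difference was log2 0.91, SE 0.16, adjusted p = 0.00194. For both genes the groups did not overlap. Cdk6, the other D cyclin kinase, was called as well (log2 1.28, SE 0.33, adjusted p = 0.0119), though WT Th2 at 25.2 FPKM reached into the vector range of 23.9 to 41.6. Cyclin D3 (Ccnd3), the D cyclin that lymphocyte precursors need to expand, was 22 to 45.7 FPKM in the 8 vector cultures (median 31.1), against 25.6 in STAT6 KO Th2, 27.2 in WT Th2, 28.3 in STAT4 KO Th1 and 44.1 in WT Th1 replicate 1; it was not called (log2 0.07, SE 0.17, adjusted p = 0.74, 95% interval −0.32 to 0.47).

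Among the G1/S regulators, 5 of 6 were higher. The phosphatase Cdc25a (mm9 chromosome 9, 109778083 to 109796394), which removes the inhibitory phosphates of CDK2, was 14.5 to 25.6 FPKM in the 8 vector cultures (median 19.7), against 3.57 in STAT6 KO Th2, 3.38 in WT Th2, 5.36 in STAT4 KO Th1 and 3.18 in WT Th1 replicate 1. For Cdc25a the difference was log2 2.04, SE 0.13, adjusted p = 5.59e-05. The groups were far apart: the lowest vector culture stood above the highest no-vector culture, STAT4 KO Th1. Ccne1 was 9.01 to 14.2 FPKM in the 8 vector cultures (median 11), against 3.85 in STAT6 KO Th2, 5.17 in WT Th2, 4.77 in STAT4 KO Th1 and 3.14 in WT Th1 replicate 1. For Ccne1 the difference was log2 1.18, SE 0.18, adjusted p = 0.00115. Cdk2 was 14.8 to 24.9 FPKM in the 8 vector cultures (median 20.8), against 12.8 in STAT6 KO Th2, 15.3 in WT Th2, 13.4 in STAT4 KO Th1 and 6.75 in WT Th1 replicate 1; WT Th2 overlapped the vector cultures, and the call at log2 0.67, SE 0.24, adjusted p = 0.0429 was lost in 13 of 19 other settings. E2f1 (log2 0.81, SE 0.24, adjusted p = 0.0206) and E2f2 (log2 0.63, SE 0.19, adjusted p = 0.0234), activators of S phase genes, were called but lost the call in 7 and 9 of 19. Ccne2 was 7.63 to 13.2 FPKM in the 8 vector cultures (median 9.303), against 8.18 in STAT6 KO Th2, 6.79 in WT Th2, 5.65 in STAT4 KO Th1 and 0.902 in WT Th1 replicate 1, and was not called (log2 0.86, SE 0.44, adjusted p = 0.133).

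Of the replication machinery, 6 of 8 members were higher, with a median log2 of 1.17, and in 7 of 8 the groups did not overlap. Mcm3, a subunit of the helicase, was 60.3 to 79.5 FPKM in the 8 vector cultures (median 69.4), against 27.9 in STAT6 KO Th2, 36.3 in WT Th2, 41.9 in STAT4 KO Th1 and 20.3 in WT Th1 replicate 1. For Mcm3 the difference was log2 1.14, SE 0.20, adjusted p = 0.00204. Mcm6 was 57.8 to 76.1 FPKM in the 8 vector cultures (median 69.4), against 28.5 in STAT6 KO Th2, 30.9 in WT Th2, 47.7 in STAT4 KO Th1 and 15.4 in WT Th1 replicate 1. For Mcm6 the difference was log2 1.203, SE 0.27, adjusted p = 0.00659. In each of these, WT Th1 replicate 1 was the lowest of the 12 libraries. Mcm5 (log2 1.29, SE 0.22, adjusted p = 0.00164), Mcm2 (log2 1.22, SE 0.28, adjusted p = 0.00672) and Mcm4 (log2 0.81, SE 0.20, adjusted p = 0.00864) rose alike, as did the loading factor Cdc6 (log2 1.28, SE 0.31, adjusted p = 0.00905), while Mcm7 did not pass the test (log2 0.48, SE 0.22, adjusted p = 0.106) although its groups did not overlap. Pcna (mm9 chromosome 2, 132075022 to 132078916), the sliding clamp of DNA polymerase that also serves in repair, stood apart from the helicase. It was 130.1 to 165 FPKM in the 8 vector cultures (median 137), against 201 in STAT6 KO Th2, 282 in WT Th2, 171 in STAT4 KO Th1 and 113 in WT Th1 replicate 1 (log2 −0.31, SE 0.21, adjusted p = 0.251, 95% interval −0.79 to 0.18), so that 3 of 4 no-vector cultures lay above every vector culture and WT Th1 replicate 1 below them all. With library medians subtracted Pcna was called lower (log2 −0.53, limma adjusted p = 0.0436), and without WT Th1 replicate 1 as well (log2 −0.56, limma adjusted p = 0.0098).

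Of the nucleotide supply enzymes, 1 of 4 was called. Rrm2, the S phase subunit of ribonucleotide reductase, was 50.3 to 73.9 FPKM in the 8 vector cultures (median 58), against 20.8 in STAT6 KO Th2, 28 in WT Th2, 28.7 in STAT4 KO Th1 and 18.7 in WT Th1 replicate 1. For Rrm2 the difference was log2 1.26, SE 0.19, adjusted p = 0.00102. Its partner Rrm1 was 43 to 58.8 FPKM in the 8 vector cultures (median 48.4), against 36.8 in STAT6 KO Th2, 40.7 in WT Th2, 40.2 in STAT4 KO Th1 and 25 in WT Th1 replicate 1; these groups did not overlap either, but the difference was smaller and not called (log2 0.42, SE 0.19, adjusted p = 0.096). Thymidylate synthase (Tyms, log2 0.35, SE 0.28, adjusted p = 0.318) and thymidine kinase (Tk1, log2 0.23, SE 0.22, adjusted p = 0.403) did not pass.

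Members of G2 and mitosis split. Cyclin A2 (Ccna2), which acts in S phase and G2, was 45 to 61.5 FPKM in the 8 vector cultures (median 55.7), against 27.6 in STAT6 KO Th2, 32 in WT Th2, 29.1 in STAT4 KO Th1 and 25.1 in WT Th1 replicate 1. For Ccna2 the difference was log2 0.88, SE 0.11, adjusted p = 0.000506. The transcription factor Foxm1 was higher too (log2 1.34, SE 0.17, adjusted p = 0.000481). Cyclin B2 (Ccnb2) was 30.1 to 46.6 FPKM in the 8 vector cultures (median 36.1), against 31.9 in STAT6 KO Th2, 33.9 in WT Th2, 39.1 in STAT4 KO Th1 and 73.8 in WT Th1 replicate 1. For Ccnb2 the difference was log2 −0.27, SE 0.19, adjusted p = 0.247; WT Th1 replicate 1 exceeded every other library. Cyclin B1 (Ccnb1, log2 0.31, SE 0.19, adjusted p = 0.201) and their kinase Cdk1 (log2 0.19, SE 0.16, adjusted p = 0.362) were not called either. With interaction terms added, Cdk1 was called higher (log2 0.56, limma adjusted p = 0.045).

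Of the mitotic kinases and spindle genes, 8 of 11 were higher. Polo-like kinase 1 (Plk1, mm9 chromosome 7, 129302951 to 129313389), which drives centrosome maturation and spindle assembly, was 20.9 to 35.4 FPKM in the 8 vector cultures (median 29.9), against 3.67 in STAT6 KO Th2, 4.06 in WT Th2, 4.44 in STAT4 KO Th1 and 7.82 in WT Th1 replicate 1. For Plk1 the difference was log2 2.24, SE 0.16, adjusted p = 6.22e-05. Aurora kinase A (Aurka, mm9 chromosome 2, 172181696 to 172196006), its activator, was 21.6 to 30.8 FPKM in the 8 vector cultures (median 27.6), against 5.63 in STAT6 KO Th2, 11.1 in WT Th2, 4.58 in STAT4 KO Th1 and 12.3 in WT Th1 replicate 1. For Aurka the difference was log2 1.599, SE 0.23, adjusted p = 0.000752. These kinases did not overlap between regimes, nor did Aurkb (log2 1.46, SE 0.18, adjusted p = 0.000432), the checkpoint kinases Bub1 (log2 0.77, SE 0.16, adjusted p = 0.00413) and Bub1b (log2 1.35, SE 0.12, adjusted p = 0.000114) and the spindle motor Kif11 (log2 0.75, SE 0.10, adjusted p = 0.00069). Cdc20, the activator of the anaphase-promoting complex, was called (log2 0.82, SE 0.21, adjusted p = 0.0122), with WT Th1 replicate 1 inside the vector range. Ube2c was 95.7 to 144 FPKM in the 8 vector cultures (median 125), against 33.8 in STAT6 KO Th2, 52.2 in WT Th2, 55.8 in STAT4 KO Th1 and 142 in WT Th1 replicate 1. For Ube2c the difference was log2 0.85, SE 0.28, adjusted p = 0.0309; WT Th1 replicate 1 lay near the top of the vector range, and the call was lost in 9 of 19 other settings. Survivin (Birc5), a partner of Aurkb, was 61.6 to 86.3 FPKM in the 8 vector cultures (median 70.03), against 52.5 in STAT6 KO Th2, 55.7 in WT Th2, 48.6 in STAT4 KO Th1 and 72.2 in WT Th1 replicate 1. Birc5 was not called (log2 0.27, SE 0.11, adjusted p = 0.0833). Without WT Th1 replicate 1 it was called higher (log2 0.36, limma adjusted p = 0.0192). The centromere histone Cenpa (103 FPKM in WT Th1 replicate 1, above all other libraries; log2 0.02, SE 0.20, adjusted p = 0.928) and the checkpoint protein Mad2l1 (log2 −0.03, SE 0.18, adjusted p = 0.908) did not pass the test.

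Top2a, which untangles replicated DNA, was 108 to 163 FPKM in the 8 vector cultures (median 137), against 102 in STAT6 KO Th2, 105 in WT Th2, 92.1 in STAT4 KO Th1 and 87.3 in WT Th1 replicate 1. For Top2a the difference was log2 0.51, SE 0.14, adjusted p = 0.0153. Mki67, the Ki-67 coat of mitotic chromosomes, was 78.3 to 109 FPKM in the 8 vector cultures (median 91.3), against 42 in STAT6 KO Th2, 50.6 in WT Th2, 53.5 in STAT4 KO Th1 and 50.003 in WT Th1 replicate 1. For Mki67 the difference was log2 0.96, SE 0.13, adjusted p = 0.000679. Neither gene overlapped between regimes. Of the CDK inhibitors, 2 of 3 were higher in vector cultures. Cdkn1a (mm9 chromosome 17, 29227931 to 29237667), a target of p53, was 131 to 366 FPKM in the 8 vector cultures (median 195), against 41.2 in STAT6 KO Th2, 74.3 in WT Th2, 56.2 in STAT4 KO Th1 and 203 in WT Th1 replicate 1 (log2 1.28, SE 0.25, adjusted p = 0.00348). Cdkn2c, an inhibitor of CDK4 and CDK6, was called as well (log2 0.63, SE 0.16, adjusted p = 0.01). In both, 1 or more no-vector cultures lay inside the vector range. The p27 gene Cdkn1b, high in resting cells, was 6.58 to 26.4 FPKM in the 8 vector cultures (median 17.1), against 31.7 in STAT6 KO Th2, 21.1 in WT Th2, 26.2 in STAT4 KO Th1 and 6.98 in WT Th1 replicate 1. Cdkn1b was not called (log2 −0.05, SE 0.41, adjusted p = 0.929). Without WT Th1 replicate 1 it was called lower in vector cultures (log2 −0.60, limma adjusted p = 0.031).

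**Figure D3:**
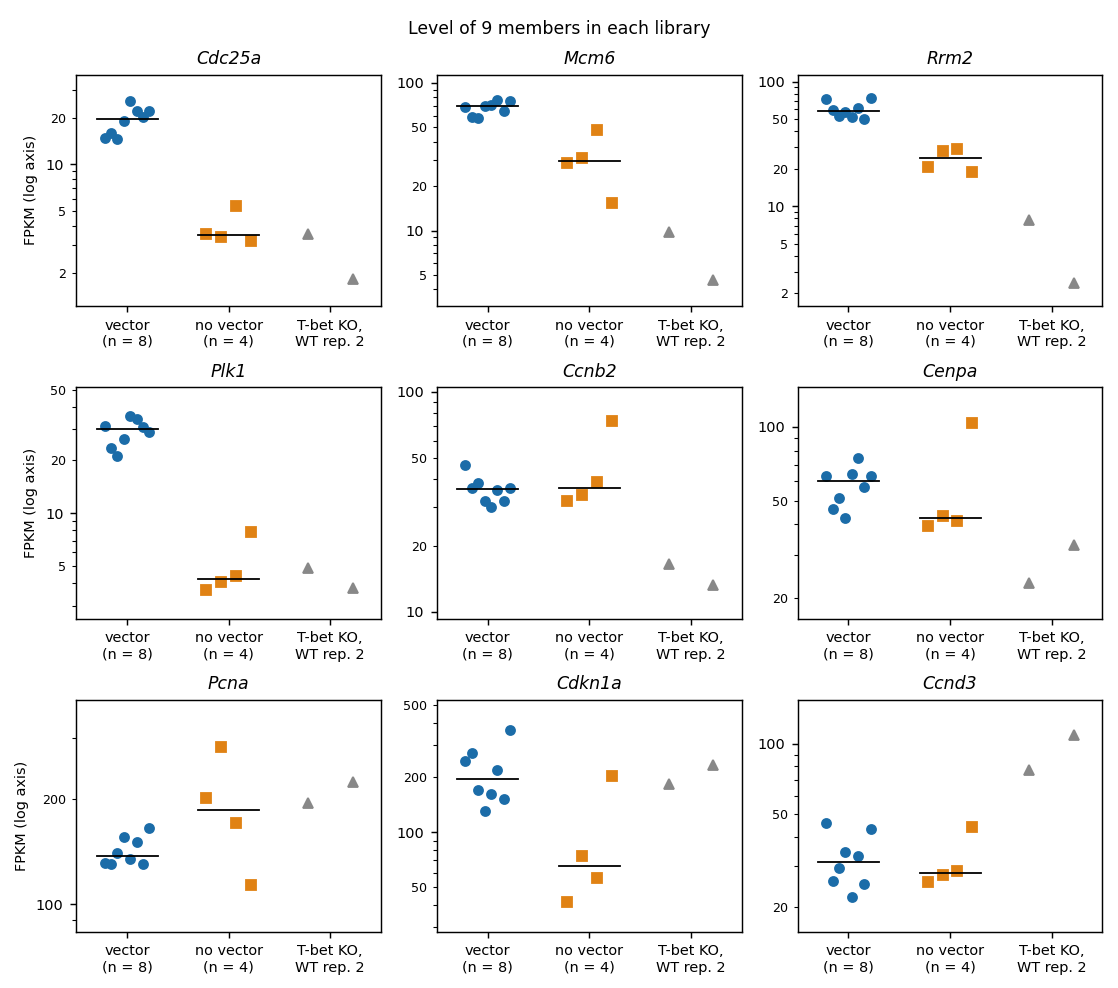
FPKM on a log axis of 9 members, with vector cultures, no-vector cultures and the 2 libraries that stood apart (T-bet KO Th1 left, WT Th1 replicate 2 right) from left to right; each point is a library and bars are medians. Cdc25a, Mcm6, Rrm2 and Plk1 separate the regimes; Ccnb2 and Cenpa do not, with WT Th1 replicate 1 highest, while in the 2 libraries that stood apart Pcna and Ccnd3 lie above and Cdkn1a within the vector range.

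Because many members moved together, their promoters were compared in RefSeq windows of 300 bases (250 before to 50 after the start, GRCm38.p6), which matched 37 members in 42 windows; Ccnd2, Ccne2, Mcm4, Ccna2, Foxm1, Aurkb and Tpx2 had none. Motifs were searched on both strands: the core of the CHR was read as TTTGAA, and an NF-Y box as CCAAT. E2F letters were TTTGGCG, the variant TTTCCCG or the variant TTCCCGC, which can overlap and count as 1 motif. E2F letters were in 6 of 8 windows of the replication role, against 8.11% of all 32851 windows, and in 1 of 10 mitotic windows. CHR letters were in 7 of 10 mitotic windows, against 17.9% of all windows, and in 1 of 8 replication windows. CCAAT was in 29 of 42 member windows, against 37.4% of all. A match describes letters, not a bound site, and the 5 members with a pair of windows count under each.

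The last 150 bases before the start are shown, 5′ to 3′ on the gene's strand, for 3 members of replication, G1/S and nucleotide supply with E2F letters, for 4 members of mitosis and chromosome structure with CHR letters, and for Ccnb2 and Pcna, which were not called; capitals mark every motif above, on either strand.
Mcm6, GRCm38.p6 chr1:128359706-128359855 (- strand): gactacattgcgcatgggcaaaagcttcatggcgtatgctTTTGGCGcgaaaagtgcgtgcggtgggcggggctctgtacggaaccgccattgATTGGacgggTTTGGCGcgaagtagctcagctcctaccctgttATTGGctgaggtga
Cdc25a, GRCm38.p6 chr9:109875429-109875578 (+ strand): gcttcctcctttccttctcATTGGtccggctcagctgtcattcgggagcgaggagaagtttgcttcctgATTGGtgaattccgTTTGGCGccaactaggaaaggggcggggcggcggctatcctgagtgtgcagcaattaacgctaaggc
Rrm1, GRCm38.p6 chr7:102441545-102441694 (+ strand): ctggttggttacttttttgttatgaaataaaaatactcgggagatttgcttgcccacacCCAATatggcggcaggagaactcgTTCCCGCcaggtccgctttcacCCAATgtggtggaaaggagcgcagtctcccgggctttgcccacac
Cdk1, GRCm38.p6 chr10:69352913-69353062 (- strand): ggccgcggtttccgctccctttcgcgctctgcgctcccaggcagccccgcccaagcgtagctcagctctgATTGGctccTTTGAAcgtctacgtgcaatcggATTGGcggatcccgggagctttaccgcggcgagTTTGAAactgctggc
Cdc20, GRCm38.p6 chr4:118437344-118437493 (- strand): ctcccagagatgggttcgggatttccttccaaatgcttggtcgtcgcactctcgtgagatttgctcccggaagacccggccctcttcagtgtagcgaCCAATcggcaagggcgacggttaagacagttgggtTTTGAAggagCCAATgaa
Top2a, GRCm38.p6 chr11:99024190-99024339 (- strand): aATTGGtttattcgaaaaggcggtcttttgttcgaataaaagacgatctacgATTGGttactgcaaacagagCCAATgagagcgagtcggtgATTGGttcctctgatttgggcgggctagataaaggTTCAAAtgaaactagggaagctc
Kif11, GRCm38.p6 chr19:37376232-37376381 (+ strand): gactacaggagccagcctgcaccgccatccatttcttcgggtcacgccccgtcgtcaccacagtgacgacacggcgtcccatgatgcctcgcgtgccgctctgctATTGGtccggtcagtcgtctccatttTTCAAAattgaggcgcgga
Ccnb2, GRCm38.p6 chr9:70421555-70421704 (- strand): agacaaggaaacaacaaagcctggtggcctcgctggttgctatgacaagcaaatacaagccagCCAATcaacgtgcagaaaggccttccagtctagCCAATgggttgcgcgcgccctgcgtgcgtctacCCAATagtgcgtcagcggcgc
Pcna, GRCm38.p6 chr2:132253181-132253330 (- strand): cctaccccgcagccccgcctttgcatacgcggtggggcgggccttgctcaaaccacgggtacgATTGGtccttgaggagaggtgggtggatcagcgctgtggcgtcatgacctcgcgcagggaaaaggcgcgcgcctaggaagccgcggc

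Mcm6, Cdc25a and Rrm1 carry E2F letters beside CCAAT boxes, and Cdk1, Cdc20, Top2a and Kif11 carry CHR letters downstream of at least 1 CCAAT box. Ccnb2 has CCAAT 3 times in this stretch and CHR letters only outside it. Pcna has CCAAT once and none of the other letters. Rrm1 and Cdk1 were not called between regimes although both hold the letters, and Plk1, with the widest difference, holds CHR letters just after the start.

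Over the 12 libraries the pairwise Pearson correlation of log2(FPKM + 1) among the 43 members had a median of 0.61, and 84.5% of 903 pairs were above 0. Rrm2 had the highest mean correlation with the other members (0.69), and Ccnb2 (−0.30) and Pcna (−0.23) the lowest. Over the 8 vector cultures alone the median was 0.30. The values describe these libraries: the points share libraries and the difference between regimes.

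Between lineages, 1 of 43 members was called: Cdkn1a was lower in Th2 than in Th1 cultures (log2 −1.29, SE 0.32, adjusted p = 0.048), where 8.65% of all genes were called (6.61% lower). Among the vector cultures the labels give the 2 h restimulation for Th1 only, so lineage and labelled restimulation cannot be told apart there. Cdkn1a was 74.3 FPKM in WT Th2 without a vector and 131 with the control vector, against 203 and 366 in WT Th1 (and 235 in WT Th1 replicate 2). The call lay close to the threshold and was lost in 14 of 20 other settings, though the direction held in all 20. The replication members leaned to Th2 (8 of 8 positive, median 0.30) and the mitotic members to Th1 (10 of 11 negative, median −0.28), with none called; the median over all genes was −0.03. At an unadjusted p under 0.05 stood 7 of 43 members, against 2769 of 10775 genes. The median over all members was 0.01 and depended on single libraries. It was −0.23 without WT Th1 replicate 1, −0.17 without WT Th2 and 0.47 with all 14 libraries.

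In the pairs of libraries, the leaning of the replication members stood in the cultures without a vector. There, 8 of 8 were higher in WT Th2 than in WT Th1 replicate 1, by a median log2 of 1.13; with the control vector 2 of 8 were, with a median of −0.10. Mcm2, for example, was 22.6 FPKM in WT Th2, against 6.65 in WT Th1 replicate 1, and 44.7 in WT Th2, against 39.4 in WT Th1, with the control vector. In STAT4 KO Th1 without a vector, also a Th1 culture, Mcm2, Mcm3 and Mcm6 were 23.6, 41.9 and 47.7 FPKM. In WT Th2 they were 22.6, 36.3 and 30.9, while Pcna was 171 in STAT4 KO Th1, against 282. The leaning thus rested largely on WT Th1 replicate 1, the lowest of the 12 libraries for each of these genes. Mitotic members were lower in Th2 in both pairs: 9 of 12 without a vector (median −0.38) and 12 of 12 with the control vector (median −0.24). Cenpa was 43.3 and 42.7 FPKM in WT Th2 (no vector, control vector), against 103 and 63 in WT Th1 (log2 −0.87, SE 0.26, adjusted p = 0.0799); in a fit of the 8 vector cultures alone, added after the data were seen, it was called lower (log2 −0.61, limma adjusted p = 0.0353). A test of the difference of lineage effects between regimes called none of 43 members, where 0.0186% of all genes were called (limma, smallest adjusted p = 0.424; 2 at an unadjusted p under 0.05, against 11.6% of all genes). Like the other fits with interaction terms, it had 2 residual degrees of freedom and called few genes anywhere, so the lack of calls says little. Set against WT Th1 replicate 2 instead of replicate 1, 40 of 44 members were higher in WT Th2 without a vector. Replicate 2 was among the libraries that stood apart, with a median member at 5.08 FPKM. The count therefore cannot be read as a difference of lineage, and the share over all genes is not given here.

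Loss of STAT4 in Th1 cultures changed no member past the threshold (limma, 0 of 43, where 4.63% of all genes were called). At an unadjusted p under 0.05 stood 5 of 43 members, against 2534 of 10775 genes, and the members' median difference was 0.01, against 0.04 over all genes. That median changed sign with single libraries: it was −0.13 without WT Th1 replicate 1, −0.08 without STAT4 KO Th1, 0.19 without WT Th1 control vector and 0.32 with all 14 libraries. Cdkn1a had the smallest p (log2 −1.17, SE 0.29, adjusted p = 0.0616, 95% interval −1.84 to −0.51): it was 56.2, 153 and 162 FPKM in STAT4 KO cells without a vector, with the control vector and with the T-bet vector, against 203, 366 and 219 in WT cells. Each STAT4 KO library was thus below its WT partner. The lineage and STAT4 comparisons share the WT Th1 libraries. Ccnd3 was 28.3, 24.9 and 22 FPKM in STAT4 KO cells, against 44.1, 42.9 and 32.9 in WT cells (log2 −0.65, SE 0.20, adjusted p = 0.0995); it was called when either GATA3 vector library was left out (limma adjusted p = 0.0455 without WT, 0.045 without STAT6 KO).

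The 3 matched pairs differed in pattern. Without a vector, replication members were higher in STAT4 KO than in WT Th1 replicate 1 in 8 of 8, 6 of them past 2-fold (all genes 3.63% higher and 4.37% lower past 2-fold), with a median log2 of 1.05. Mcm2 was 23.6 FPKM in STAT4 KO, against 6.65 in WT Th1 replicate 1. Mcm6 was 47.7 FPKM in STAT4 KO, against 15.4. Mitotic members were lower in 10 of 12, with a median of −0.63: Ube2c was 55.8 FPKM in STAT4 KO, against 142, and Aurka 4.58, against 12.3. With the control vector the replication members were lower in 8 of 8 (median −0.32), and with the T-bet vector in 6 of 8 (median −0.09); mitotic medians were −0.12 and −0.06. Past 2-fold in the vector pairs lay only Cdkn1a with the control vector and Cdkn1b with the T-bet vector (all genes 4.24% and 3.61%).

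The difference between the no-vector pair and the vector pairs was tested with an interaction of STAT4 KO and culture, added after the data were seen. No member was called, where 0.00928% of all genes were (limma, smallest adjusted p = 0.0759, Ube2c at 1.51, SE 0.14). At an unadjusted p under 0.05 stood 32 of 43 members, against 25% of all genes, among them Mcm2 (−1.67, SE 0.22) and Cdkn1b (−2.63, SE 0.30). Cdkn1b was 26.2 FPKM in STAT4 KO without a vector, against 6.98 in WT Th1 replicate 1, and 6.58, against 16.5, with the T-bet vector. The no-vector side rests on 1 library each, and depends on the WT library: against WT Th1 replicate 2, 41 of 44 members were higher in STAT4 KO, the mitotic ones in 12 of 12. Replicate 2 was among the libraries that stood apart, with low levels of most members. These counts therefore cannot be read as an effect of STAT4 loss, and the share over all genes is not given here.

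**Figure D4:**
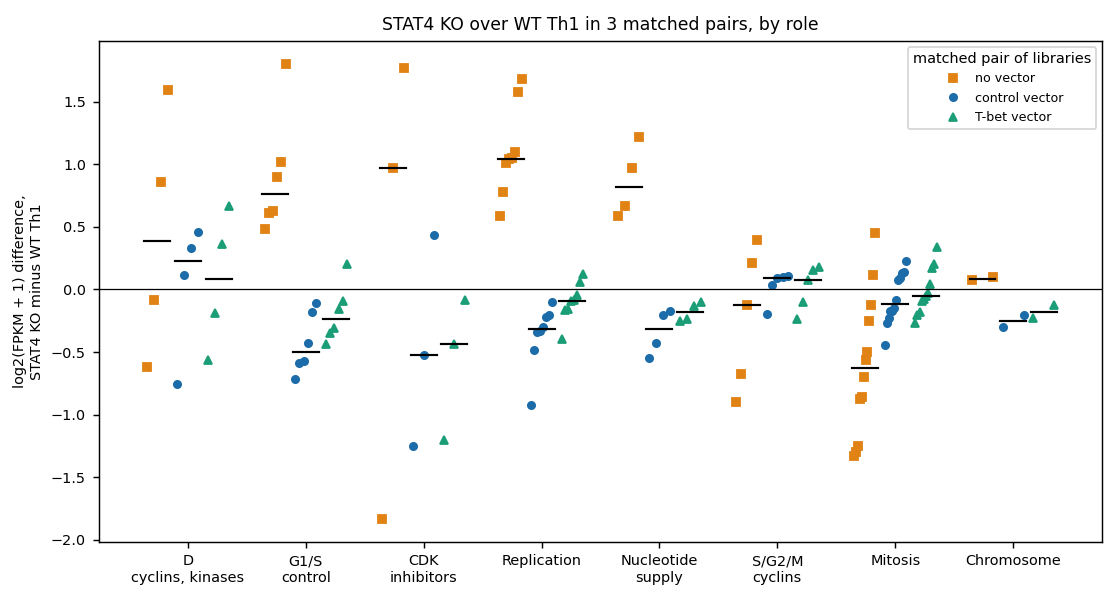
Differences of log2(FPKM + 1), STAT4 KO minus WT Th1, for each member by role in 3 matched pairs of libraries; points are members and bars medians. In the no-vector pair replication members have a median of 1.05 and mitotic members of −0.63, while in both vector pairs these medians lie between −0.32 and −0.06.

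Loss of STAT6 in Th2 cultures likewise changed no member past the threshold (limma, 0 of 43, where 4.45% of all genes were called; 2 at an unadjusted p under 0.05, against 2213 of 10775 genes). Cdkn2c had the smallest p (log2 0.64, SE 0.18, adjusted p = 0.0928): it was 11, 16.8 and 15.4 FPKM in STAT6 KO cells (no vector, control vector, GATA3 vector), against 6.33, 9.89 and 10.6 in WT cells, so every STAT6 KO library stood above its partner. Without WT Th1 replicate 1 it was called (limma adjusted p = 0.034). E2f2 was 9.34, 22 and 21.2 FPKM in STAT6 KO cells, against 8.15, 12.6 and 11.6 in WT cells (log2 0.58, SE 0.22, adjusted p = 0.178); in the 8 vector cultures alone it was called (log2 0.79, limma adjusted p = 0.0162). Over all 44 members, 39 were lower in STAT6 KO without a vector (median −0.25, all genes 0.04) and 26 with the control vector (median −0.07), while 37 were higher with the GATA3 vector (median 0.28, all genes 0.07). The interaction of STAT6 KO with the GATA3 vector was called for no member, where 0.00928% of all genes were called (limma, smallest adjusted p = 0.722; 1 at an unadjusted p under 0.05). That with culture, added after the data were seen, was called for none either, where 0.343% of all genes were called (limma, smallest adjusted p = 0.117; 15 at an unadjusted p under 0.05, against 19.6% of all genes).

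Ectopic T-bet or GATA3 changed no member past the threshold (limma, 0 of 43 each). The T-bet vector called 0.00928% of all genes, so that this comparison called almost nothing anywhere; 1 member stood at an unadjusted p under 0.05, against 389 of 10775 genes. That member was E2f2, at 7.97 and 10.1 FPKM with the T-bet vector in STAT4 KO and WT cells, against 12.7 and 14.5 with the control vector (log2 −0.66, SE 0.25, adjusted p = 0.968). Fitted member differences with T-bet ran from −0.66 to 0.51, with a median of 0.08 and 95% intervals reaching from −1.68 to 1.85. The GATA3 vector called 3.54% of all genes. Cdkn1a had the smallest p there: it was 247 and 273 FPKM with the GATA3 vector in STAT6 KO and WT cells, against 170.4 and 131 with the control vector (log2 0.87, SE 0.33, adjusted p = 0.239); 1816 of 10775 genes had an unadjusted p under 0.05. Member differences with GATA3 ran from −0.52 to 0.87 (median 0.02). The interaction of STAT4 KO with the T-bet vector was called for no member, where 0.0371% of all genes were called (limma; 0 members at an unadjusted p under 0.05, against 1.73% of all genes).

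T-bet loss was measured in 1 library, so no test was made. Against WT Th1 replicate 2, the library that stood apart with it, 39 of 44 members were higher in T-bet KO Th1 and 5 were past 2-fold, all higher (all genes 1.81% higher and 1.88% lower), with a median log2 of 0.41. The 5 were Cdk6, Mcm2, Mcm5, Rrm2 and Top2a. Mcm2 was 14 FPKM in T-bet KO, against 5.22 in WT replicate 2. Top2a was 19.2 FPKM in T-bet KO, against 8.66. Against WT Th1 replicate 1 the direction turned: 17 members were more than 2-fold lower and 2 higher (all genes 13.8% and 14.6%), with Top2a at 87.3 FPKM in that library.

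The WT Th1 replicates differed from each other as well. In replicate 2, 23 of 44 members were more than 2-fold lower than in replicate 1 and 1 higher (all genes 11.9% and 13.7%). Among the mitotic members 11 of 12 were more than 2-fold lower. Mki67 was 9.71 FPKM in T-bet KO, against 6.39 in replicate 2 and 50.003 in replicate 1. Rrm2 was 7.75 FPKM in T-bet KO, against 2.45 and 18.7. Ccna2 was 5.37 FPKM in T-bet KO, against 3.09 and 25.1. Against replicate 1, T-bet KO and replicate 2 thus shared lower levels of the mitotic members and of Mki67, Rrm2 and Ccna2. Replication members did not all follow in T-bet KO. Mcm2 was 14 FPKM there, against 6.65 in replicate 1, and Mcm3 21.3, against 20.3, while Mcm6 was 9.76, against 15.4. In Ccnd3, T-bet KO and replicate 2 stood above all others: it was 77.2 FPKM in T-bet KO, against 109 in replicate 2, 44.1 in replicate 1 and at most 45.7 in any of the 12. Pcna was 195 FPKM in T-bet KO, against 225 and 113, within the range of the other no-vector cultures (113 to 282). Myc, which the receptor signal induces, was 1132 FPKM in T-bet KO, against 1015 and 609. The early receptor response genes summed to 8226 to 8347 FPKM in these libraries and 2930.1 to 9399 in the other no-vector cultures; the part of this, and of their small RNA share, in the members' levels was not tested.

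**Figure D5:**
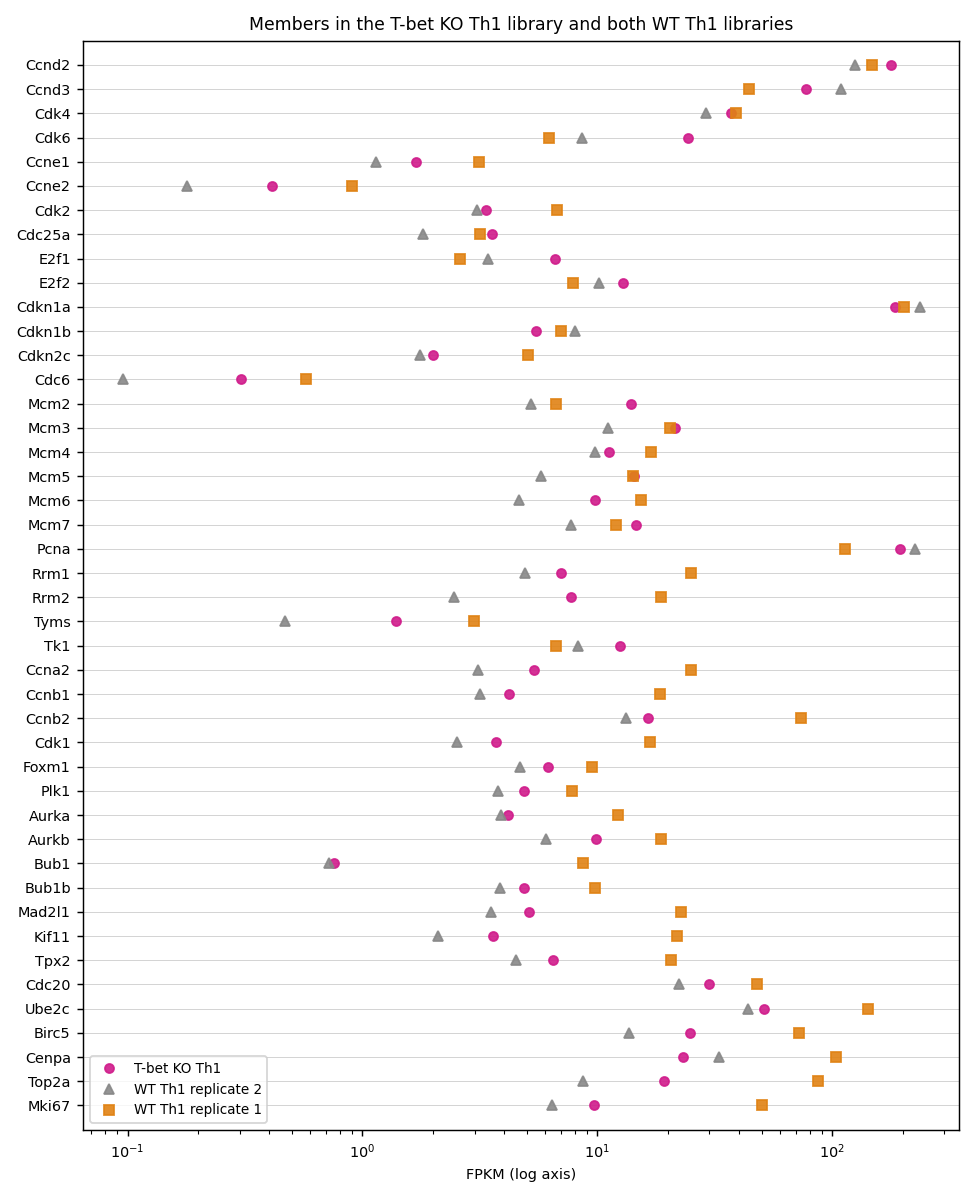
FPKM of each member, on a log axis, in the T-bet KO Th1 library and both WT Th1 libraries. T-bet KO lies close to WT replicate 2 and below replicate 1 for mitotic members, with Ube2c at 51.4, 43.6 and 142 FPKM.

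Counts for other genes of the same pathways are read against the 37.2% of all genes called higher and 16.5% called lower between regimes. There, 16 of 31 other replication genes were higher in vector cultures and 0 lower, led by the CAF-1 subunit Chaf1a (log2 1.66, adjusted p = 0.000363), Mcm10 (log2 1.59, adjusted p = 0.000188) and the licensing factor Cdt1 (log2 1.54, adjusted p = 0.000445). Of 36 other G2/M genes, 18 were higher and 1 lower; Gtse1, a p53-linked G2 protein, led (log2 2.55, adjusted p = 5.99e-05), with separase (Espl1, log2 1.87, adjusted p = 6.16e-05) and Ccnf (log2 1.76, adjusted p = 5.59e-05), while securin (Pttg1), the inhibitor of separase, was lower (log2 −1.12, adjusted p = 0.000738). Of 25 other G1 and RB/E2F regulators, 17 were higher and 1 lower, with B-MYB (Mybl2, log2 1.83, adjusted p = 9.03e-05), E2f8 (log2 1.45, adjusted p = 0.000362) and Tfdp1 (log2 1.33, adjusted p = 0.000148) in front. Of 49 replication-dependent histone genes, 15 were higher and 1 lower, led by Hist1h1b (log2 0.90, adjusted p = 0.00153); their messages mostly lack poly(A) tails and copies are near-identical, so their levels are uncertain.

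Of the IL-2 and growth genes, 6 of 16 were higher and 2 lower in vector cultures, close to the shares of all genes (37.2% and 16.5%). Stat5a, which carries the IL-2 signal, led (log2 2.72, adjusted p = 6.54e-05), with Stat5b (log2 1.301, adjusted p = 0.000233), while Bcl2 was lower (log2 −0.77, adjusted p = 0.0106). Of 16 quiescence-linked genes, 3 were higher and 5 lower, with the IL-7 receptor (Il7r, log2 −2.12, adjusted p = 8.74e-05) and S1pr1 (log2 −1.16, adjusted p = 0.0259) lower. Of 16 early receptor response genes, 2 were higher and 5 lower, with Egr3 (log2 −1.97, adjusted p = 0.000431), Fosb (log2 −1.81, adjusted p = 0.000185) and Tnf (log2 −1.76, adjusted p = 0.00129) lower. The Th2 vector cultures have no labelled restimulation, and the part of this in these differences was not tested.

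In the genetic comparisons these lists gave fewer calls than between regimes. In Th2 over Th1, 4 of 16 IL-2 and growth genes were lower, against 6.61% of all genes. So were 2 of 16 early response, 2 of 16 quiescence-linked and 2 of 25 other G1 and RB/E2F genes. Of all genes, 4.63% were called in STAT4 KO, 4.45% in STAT6 KO and 3.54% with the GATA3 vector. In Th2 over Th1, no other replication or G2/M gene of 31 and 36 was called (limma; 0 and 8 at an unadjusted p under 0.05). Cdkn2a (log2 −1.43, adjusted p = 0.00211) and the p53 target Mdm2 (log2 −0.87, adjusted p = 0.0406) were lower. Also lower were the IL-2-induced kinase Pim2 (log2 −1.75, adjusted p = 0.00697), the IL-2 receptor β chain Il2rb (log2 −1.07, adjusted p = 0.0474), and Pim1 (log2 −0.90, adjusted p = 0.0173). Of early response and resting genes, Jun (log2 −3.11, adjusted p = 0.000543), Fosb (log2 −1.28, adjusted p = 0.0183) and Btg1 (log2 −1.18, adjusted p = 0.0258) were lower. The histone gene Hist1h3a was higher (log2 0.80, adjusted p = 0.035). In STAT4 KO, Cdkn2a (log2 −0.84, adjusted p = 0.0204), Pim2 (log2 −1.49, adjusted p = 0.0163) and Il2rb (log2 −1.39, adjusted p = 0.0254) were lower, and so were Jun (log2 −1.38, adjusted p = 0.0154), Junb (log2 −1.05, adjusted p = 0.0257), the IL-7 receptor Il7r (log2 −1.66, adjusted p = 0.00981), Btg2 (log2 −0.78, adjusted p = 0.0213) and Foxo1 (log2 −0.79, adjusted p = 0.0432). Of the other replication and G2/M genes, 1 and 3 had an unadjusted p under 0.05 and none was called. In STAT6 KO, Il2 was 3230.5, 2538 and 1729 FPKM (no vector, control vector, GATA3 vector), against 341, 535 and 661 in WT Th2 (log2 2.29, adjusted p = 0.0215). Jun (log2 1.35, adjusted p = 0.0111) and Cd69 (log2 1.501, adjusted p = 0.0326) were higher. With the GATA3 vector, the antiproliferative genes Tob1 (log2 1.21, adjusted p = 0.0171) and Btg2 (log2 0.79, adjusted p = 0.0274) and Ier3 (log2 2.53, adjusted p = 0.0131) were higher. So were 4 of 49 histone genes, led by Hist1h2bc (log2 1.89, adjusted p = 0.0149). With the T-bet vector no listed gene was called.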

How the data were processed

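The authors deposited 1 gene table per RNA library with FPKM computed by Cufflinks and its interval, per the file headers; TopHat, Cufflinks and build mm9 are named in the submitters' processing notes, and the sources used here give neither versions nor annotation. Libraries were TruSeq, single reads of total RNA on an Illumina HiSeq, per the labels' protocols. The ChIP samples are not analysed here. The tables give no read counts, so no count test was run.

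From these values, log2(FPKM + 1) was fitted with limma 3.58.1 in R 4.3.3 (lmFit, eBayes with trend) for 10775 genes that reached 1 FPKM in 2 or more libraries; this scale understates changes of low genes. 12 libraries entered, with additive terms for lineage, culture regime, STAT4 KO, STAT6 KO, T-bet vector and GATA3 vector. WT Th1 replicate 2 and T-bet KO Th1, which stand apart, were left out. No group in the fit has a replicate: the spread comes from departures from additivity (5 residual degrees of freedom). Fits with interaction terms had 2 residual degrees of freedom. They called at most 0.343% of all genes for any interaction, so a lack of calls among members there says little. 45 genes with a failed estimate were left out. Benjamini-Hochberg adjustment ran over all genes tested. On simulated data, over 10775 genes with 100 changed by 1 on the log2 scale, the fit called 75 (lineage), 85 (culture), 84 (STAT4 KO), 81 (STAT6 KO), 71 (T-bet vector) and 68 (GATA3 vector). It also called 5 (culture) to 17 (STAT4 KO) unchanged genes. The simulated noise was independent, around exactly additive effects. In the data the spread comes from departures from additivity, so these counts do not show how many real changes would be called. Promoter windows came from RefSeq (GRCm38.p6); loci are in mm9, with starts counted from 1.

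The members and gene lists, and the choice of 12 libraries, were made with earlier results of these data known. All members could be named. Levels by library are given for the 2 highest members of each role, the CDK inhibitors and D cyclins, and in each comparison the 3 called members (or the 1 with the smallest p) of largest change. Genes outside the members were the 3 called genes of largest change per list and comparison, with a few further called ones, and some pair examples (Mcm2, Mcm6, Cenpa, Ube2c, Aurka), chosen after their values were seen. Some listed genes that this rule would name are not reported here.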

Additional observations from a re-analysis of the deposited data

How the results depend on the processing

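Over the alternatives run, the 29 members called between culture regimes became 22 with all 14 libraries, 29 with a pseudocount of 0.1, 25 without a filter, 29 with a filter of 5 FPKM, 26 after quantile normalization, 24 (23 higher, 1 lower) with library medians subtracted, 23 with interaction terms and 25 to 31 when leaving out 1 library. Without WT Th1 replicate 1 the calls included Cdkn1b and Pcna, both lower. The single call between lineages, Cdkn1a, became 0 with all 14 libraries, without a filter, with library medians subtracted and with interaction terms, and 0 to 1 when leaving out 1 library. STAT4 KO and STAT6 KO had 0 calls under each of these settings, and 0 to 1 when leaving out 1; in the 8 vector cultures alone, added after the data were seen, they had 1 (Cdkn1b, lower) and 2 (E2f2 and Mki67, higher), as against 0 each. Both vector comparisons had 0 calls under each of these settings and when leaving out 1; the interactions had 0 under each setting they were refitted in, and were not refitted with a library left out. Of T-bet KO against WT Th1, 5 members past 2-fold became 19 against replicate 1 and 8 with a pseudocount of 0.1. Of 571 recomputed log2 changes of called members, 506 kept direction and call, 65 lost the call and 0 reversed; the causes were not tested. 16 of 30 called values kept the call in every setting. No paired analysis was possible because no 2 groups share more than 1 replicate number; with KO and WT libraries of the same lineage and vector as a block instead, added after the data were seen, STAT4 KO and STAT6 KO again had 0 calls among members. The fewest fragments implied for a member were 20 (Cdc6 in WT Th1 replicate 2, left out of the fit) and, in the fitted libraries, 27 (Tpx2 in STAT4 KO Th1 T-bet vector, not tested) and 83 (Ccne2 in WT Th1 replicate 1); the single libraries per group limit the rest.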
